A study of Mus musculus with 8 samples.

Results

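The genes described here encode 10 proteins of microfibrils and elastic fibres: the fibrillins *Fbn1* and *Fbn2*, elastin (*Eln*), the fibulins *Fbln2* and *Fbln5*, the latent TGF-beta binding proteins *Ltbp1* and *Ltbp2*, the microfibril-associated glycoproteins *Mfap4* and *Mfap5*, and *Emilin1*. They were found by symbol among the 18605 genes of the expression table, 10 of 10 were present, and all 10 passed the filter on low counts that left 13470 genes for testing. The set was chosen by the function of its genes with their counts and fold changes in these 8 libraries already known. Their values are therefore given as a description: no p-value of a member is printed, and where a member is said to be called, this states only on which side of the threshold it fell in the fit across all genes and is no evidence for the set.

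RNA of C3H10T1/2 cells, a mesenchymal stem cell line from mouse C3H embryo, was sequenced in 4 groups of 2 libraries. Cells of this line were maintained in DMEM with 10% FBS. For osteogenic induction the paper changed to high-glucose DMEM with 10% FBS, to which dexamethasone, ascorbic acid and β-glycerol phosphate were added. NC cells carried a non-target control and KD-Nap1l2 cells a knockdown of *Nap1l2*, a nucleosome assembly protein, delivered by a lentiviral shRNA. Both were taken before induction (day 0), and after 7 days of osteogenic induction as NC-7d and KD-Nap1l2-7d. No group was kept for 7 days without induction. The comparisons with induction therefore cannot separate it from days in culture or from the change of medium. All cells come from 1 line, and nothing in the labels says that the 2 libraries of a group came from separate cultures, so the errors below measure only the spread between these libraries.

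Library totals ran from 17420284 to 19427359 estimated counts. *Nap1l2* itself had 3 and 3 counts in NC, 2 and 7 in KD-Nap1l2, 15 and 5 in NC-7d, and 7 and 13 in KD-Nap1l2-7d. These counts did not separate the labels, so "KD-Nap1l2" below stands for the libraries labelled so. The mesenchymal label was matched by *Col1a1*, *Col1a2*, *Col3a1* and *Vim*, each with at least 12610 counts in every library, whereas *Thy1* had 19 to 183 counts. Of the osteoblast markers, *Sp7* had 1 to 5 counts, *Alpl* 0 to 10 and *Ibsp* 0 to 2 in all 8 libraries, the induced ones included, while *Spp1* had 27598 to 32067 counts before and 38565 to 90638 after induction. Macrophage and endothelial markers stayed low in sum, at most 29.31 and 20.45 CPM, with at most 4 counts for *Ptprc* and 3 for *Kdr*. Other markers of these lists had more: *Cd68* had 56 to 196 counts and *Tek* 10 to 102. *Cd14* had 134 to 218 counts before and 229 to 424 after induction. *Vwf* had 15 to 345 counts, both of these values from NC-7d libraries. The 8 proliferation markers summed to between 913.1 and 1317 CPM (counts scaled to the library total) before induction, to 449.1 and 986.8 in NC-7d replicates 1 and 2, and between 543.9 and 551.9 in the KD-Nap1l2-7d libraries. The 9 mesenchymal markers summed to between 18166 and 25934 CPM before and to between 10319 and 14941 CPM after induction. The 7 smooth muscle markers summed to between 1617 and 3468 CPM before and to between 696.7 and 1576 CPM after induction, and the 7 adipocyte markers to between 43.8 and 62.06 CPM before and to between 150.8 and 191.1 CPM after it. The 6 chondrocyte markers lay between 267.3 and 511.2 CPM in all libraries, and the 8 osteoblast markers between 1605 and 1917 CPM before and between 2142 and 5296 CPM after induction. The mesenchymal, smooth muscle, adipocyte and osteoblast sums did not overlap between the days, but a few abundant genes carried them and other markers of the same lists did not follow. Among osteoblast markers, *Spp1* made up most of the sum, while *Runx2* had 1352 to 1604 counts before and 974 to 1097 after induction, and *Dmp1* 130 to 569 before and 75 to 154 after it. Among adipocyte markers, *Fabp4* had 91 to 278 counts before and 1531 to 1948 after induction and *Pparg* 623 to 716 and 1158 to 1383, while *Cebpa* had 77 to 202 and 24 to 69. The mesenchymal marker *Twist2* had 395 to 581 counts before and 547 to 815 after induction, and the smooth muscle marker *Smtn* 2082 to 3431 and 2306 to 3884, so neither was lower. The part of these markers in the results below was not tested.

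Fibrillins are large secreted glycoproteins that polymerize into microfibrils, and microfibrils serve as the scaffold on which tropoelastin is deposited and cross-linked by lysyl oxidases. Fibulins and microfibril-associated glycoproteins bind to this scaffold and help to guide elastin onto it. Latent TGF-beta binding proteins, which are relatives of the fibrillins, hold latent TGF-beta in the matrix, and emilin 1 lies at the interface between elastin and microfibrils. In the mesenchyme, *Fbn2* is best known from developing tissue and *Fbn1* from tissue of all ages.

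Promoter sequences of 3 members are shown because their RNA moved in different ways. *Fbn1* and *Fbln5* were lower after induction in NC and in KD-Nap1l2 cells. *Ltbp2* lay lower after induction in NC cells and higher in KD-Nap1l2 cells. RefSeq promoters on GRCm38.p6, each running from 250 bases before to 50 bases after a start site, were at hand for 6 of the 10 members. Capitals mark matches to motifs that were searched on both strands. Core promoter elements were searched as TATAAA, the binding element of general transcription factors, and as GGGCGG, the GC box bound by Sp1. Signal-dependent factors were searched as CAGAC for SMAD proteins, as TGANTCA for the AP-1 complex and as AGAACA for the glucocorticoid receptor. The osteoblast factor family RUNX was searched as AACCACA. The *Fbn1* window is chr2:125506389-125506688, the *Fbln5* window chr12:101819070-101819369 and the *Ltbp2* window chr12:84876442-84876741, all read from the minus strand, 5′ to 3′.
Fbn1: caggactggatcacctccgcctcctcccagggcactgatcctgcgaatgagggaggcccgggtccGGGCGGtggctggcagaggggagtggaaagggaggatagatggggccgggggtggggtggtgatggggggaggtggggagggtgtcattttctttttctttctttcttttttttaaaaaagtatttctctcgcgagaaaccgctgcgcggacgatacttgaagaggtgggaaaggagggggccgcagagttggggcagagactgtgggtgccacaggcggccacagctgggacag
Fbln5: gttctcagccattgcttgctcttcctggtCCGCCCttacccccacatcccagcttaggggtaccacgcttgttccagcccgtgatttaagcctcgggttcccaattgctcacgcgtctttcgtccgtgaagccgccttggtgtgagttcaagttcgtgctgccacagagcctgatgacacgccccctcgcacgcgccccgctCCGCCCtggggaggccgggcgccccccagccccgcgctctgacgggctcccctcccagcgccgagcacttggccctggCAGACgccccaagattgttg
Ltbp2: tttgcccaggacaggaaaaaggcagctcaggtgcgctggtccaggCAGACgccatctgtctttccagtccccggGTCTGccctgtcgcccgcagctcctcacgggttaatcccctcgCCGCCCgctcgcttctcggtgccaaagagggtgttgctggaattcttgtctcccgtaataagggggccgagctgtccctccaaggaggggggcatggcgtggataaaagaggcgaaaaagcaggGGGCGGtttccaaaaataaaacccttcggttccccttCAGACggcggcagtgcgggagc
The *Fbn1* window held 1 GC box, 185 bases before the start, and no other match. The *Fbln5* window held 2 GC boxes on the reverse strand, 221 and 48 bases before the start, and 1 CAGAC at base 31 after it. The *Ltbp2* window held 2 GC boxes, 133 and 9 bases before the start, and 3 CAGAC matches, 205 and 176 bases before and 29 bases after the start. Among all 32851 promoters of this length, 35.7% held a GC box and 49.6% a CAGAC on either strand, so these matches are common. The element TATAAA was found in 13.6%, TGANTCA in 7.81%, AGAACA in 19% and AACCACA in 5.27% of all promoters, and none of the 4 was found in the 3 windows shown. GC content was 60.3% for *Fbn1*, 65.7% for *Fbln5* and 61.0% for *Ltbp2*, against a median of 52.7% over all promoters. A second *Fbln5* promoter, not printed, had a GC content of 48.7%. It held no GC box and 2 CAGAC matches, 199 and 15 bases before its start.

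After 7 days of induction, most of the 10 genes were lower than before it, in NC and in KD-Nap1l2 cells alike. Elastin fell by more than the fibrillins and *Fbln5*, and *Fbln2* and *Ltbp1* stayed within a fold change of 1.36. In NC cells, 5 of the 10 were called lower by edgeR at an adjusted p-value of 0.05 (*Fbn1*, *Fbn2*, *Eln*, *Fbln5* and *Mfap4*), and 0 were higher. Over all 13470 genes tested, 3.39% were called lower and 4.83% higher. In KD-Nap1l2 cells, 6 of the 10 were called lower (*Fbn1*, *Fbn2*, *Eln*, *Fbln5*, *Mfap5* and *Emilin1*) and 0 higher, beside 7.36% of all genes called lower and 6.84% higher. Leaving out a single NC or NC-7d library brought the count in NC cells to 1 (without NC replicate 1) or 2, and leaving out a KD-Nap1l2-7d library brought it to 3. In KD-Nap1l2 cells the count was 3 without KD-Nap1l2-7d replicate 1 and 4 without replicate 2. As these fold changes were known when the genes were put together, nothing is read from the counts. RNA from fewer cells that express a gene and less RNA per cell cannot be told apart in these bulk libraries.

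The libraries of 9 of the 10 members lay lower after induction without overlap in NC cells, and 0 lay higher. Over all genes, 28.4% lay lower and 29.4% higher without overlap. In KD-Nap1l2 cells 9 members lay lower and 1, *Ltbp2*, lay higher, beside 30.6% and 30.8% of all genes. The median log2 fold change of the members was -0.75 in NC and -1.61 in KD-Nap1l2 cells, against -0.004 and -0.007 over all genes tested.

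**Figure D1:**
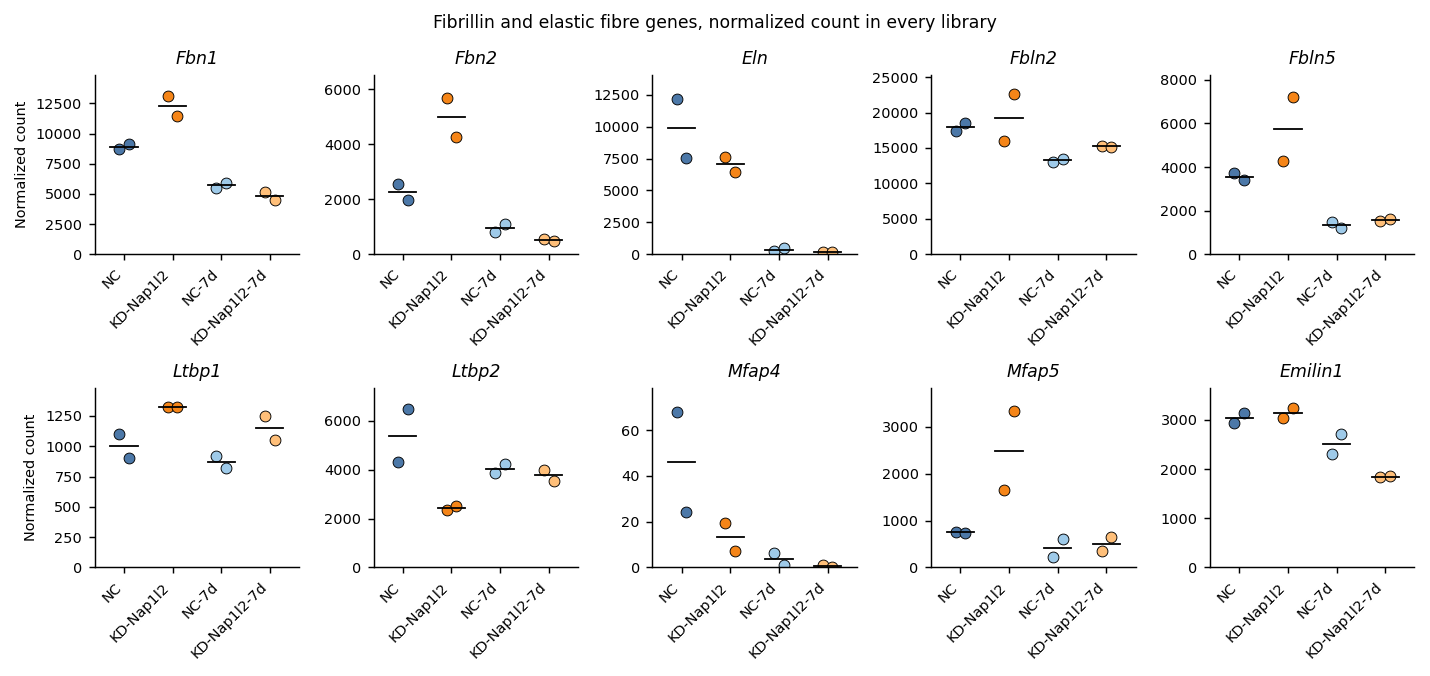
Normalized counts (vertical axes, from 0) of the 10 members in the 4 groups (horizontal axes). Each point is 1 library and each bar the mean of 2. The induced groups lie below the groups taken before induction for *Fbn1*, *Fbn2*, *Eln*, *Fbln2*, *Fbln5*, *Mfap5* and *Emilin1*. The same holds narrowly for *Mfap4*, which was close to the detection limit. *Ltbp2* is lowest in KD-Nap1l2.

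*Fbn1*, the main fibrillin of adult connective tissue, had 8690 and 9112 normalized counts in NC, 13115 and 11494 in KD-Nap1l2, 5510 and 5879 in NC-7d, and 5182 and 4506 in KD-Nap1l2-7d. Normalized counts are estimated counts scaled to library size and composition by TMM. The 4 groups did not overlap at all: KD-Nap1l2 was highest, NC next, then NC-7d and KD-Nap1l2-7d. With induction *Fbn1* was 1.56-fold lower in NC cells (log2 fold change -0.64 ± 0.14, SE, n = 2 per group) and 2.54-fold lower in KD-Nap1l2 cells (-1.35 ± 0.14). Against NC cells it was 1.38-fold higher in KD-Nap1l2 before induction (0.47 ± 0.14) and lower by 1.18-fold afterwards (-0.23 ± 0.14). The call in KD-Nap1l2 cells was made in 14 of 14 alternative settings. That in NC cells was made in 7 of 14, and was lost when any single NC, NC-7d or KD-Nap1l2-7d library was left out, with log2 fold changes from -0.69 to -0.60 throughout.

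*Fbn2*, the fibrillin of developing microfibrils, showed the same order with wider steps. It had 2560 and 1965 normalized counts in NC, 5682 and 4272 in KD-Nap1l2, 819.9 and 1093 in NC-7d, and 562.4 and 496 in KD-Nap1l2-7d. No 2 groups overlapped. After induction *Fbn2* was 2.36-fold lower in NC cells (log2 fold change -1.24 ± 0.21) and 9.40-fold lower in KD-Nap1l2 cells (-3.23 ± 0.23). Before induction it was 2.20-fold higher in KD-Nap1l2 than in NC (1.14 ± 0.21), and after it 1.81-fold lower (-0.85 ± 0.22). The log2 fold change of induction was thus -1.99 ± 0.30 further down in KD-Nap1l2 than in NC cells. The call in KD-Nap1l2 cells held in 14 of 14 settings, and that in NC cells in 12 of 14, being lost without NC replicate 1 or without NC-7d replicate 1.

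Set per length as FPKM, which are counts scaled to gene length and library size, *Fbn2* was always below *Fbn1*. The ratio of *Fbn2* to *Fbn1* FPKM was 0.279 and 0.205 in NC, 0.41 and 0.353 in KD-Nap1l2, 0.142 and 0.176 in NC-7d, and 0.103 and 0.105 in KD-Nap1l2-7d. The ratio was highest in KD-Nap1l2 before and lowest in KD-Nap1l2-7d, and no 2 groups overlapped.

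**Figure D2:**
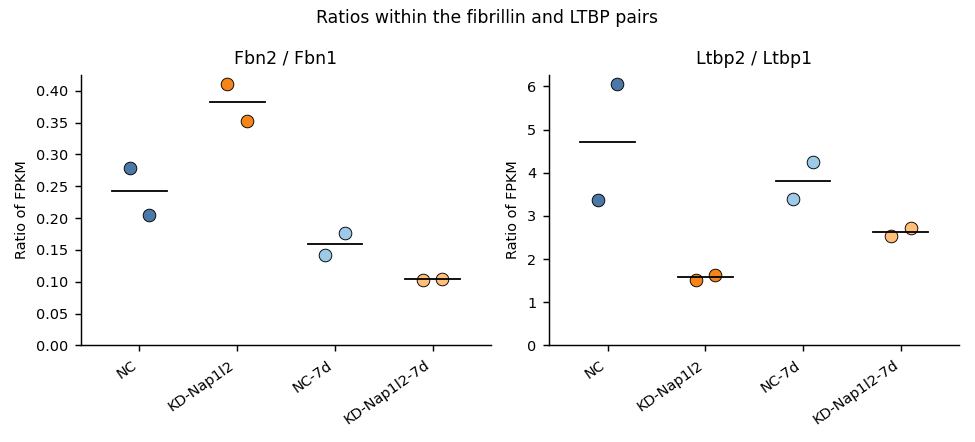
Ratio of *Fbn2* to *Fbn1* FPKM (left) and of *Ltbp2* to *Ltbp1* FPKM (right), each point 1 library and each bar the mean of 2, with axes from 0. The fibrillin ratio was highest in KD-Nap1l2 (0.41 and 0.353), where the LTBP ratio was lowest (1.52 and 1.63).

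Elastin, the protein that gives elastic fibres their recoil, had the largest induction values of the 9 members other than *Mfap4*, whose counting intervals, given with its values, include the *Eln* fold changes. *Eln* had 12215 and 7567 normalized counts in NC, 7614 and 6478 in KD-Nap1l2, 220.5 and 463.1 in NC-7d, and 133.3 and 190.1 in KD-Nap1l2-7d. The groups taken before induction overlapped each other, and the highest induced library was far below the lowest of them. After induction *Eln* was 28.9-fold lower in NC cells (log2 fold change -4.85 ± 0.42) and 43.6-fold lower in KD-Nap1l2 cells (-5.45 ± 0.43). Both calls were made in 14 of 14 settings. KD-Nap1l2 libraries were 1.40-fold lower before induction (-0.49 ± 0.35, overlapping) and 2.12-fold lower after it (-1.08 ± 0.38, not overlapping). The latter value rests on NC-7d replicate 2, since it was -0.45 without that library, and the 2 NC-7d libraries differed 2.1-fold from each other.

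The fibulins differed in the size of their change. *Fbln5*, which tethers elastin to cells and is needed for elastic fibre assembly, had 3707 and 3387 normalized counts in NC, 4273 and 7199 in KD-Nap1l2, 1484 and 1216 in NC-7d, and 1500 and 1629 in KD-Nap1l2-7d. Every induced library was below every library taken before induction, and KD-Nap1l2 lay above NC on both days. After induction *Fbln5* was 2.63-fold lower in NC cells (log2 fold change -1.39 ± 0.24) and 3.67-fold lower in KD-Nap1l2 cells (-1.87 ± 0.24). KD-Nap1l2 libraries were 1.62-fold higher than NC before induction (0.69 ± 0.23), a value that went to 1.02 on leaving out KD-Nap1l2 replicate 1 and to 0.27 on leaving out replicate 2, and 1.16-fold higher after it (0.21 ± 0.24). The induction call was lost without NC replicate 1, NC replicate 2 or NC-7d replicate 2 in NC cells (11 of 14 settings made it), and without KD-Nap1l2-7d replicate 1 in KD-Nap1l2 cells (13 of 14).

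*Fbln2*, a fibulin that bridges fibrillin and other matrix proteins, had 17436 and 18570 normalized counts in NC, 15933 and 22583 in KD-Nap1l2, 13068 and 13461 in NC-7d, and 15236 and 15186 in KD-Nap1l2-7d. It was the member with the highest FPKM in all 4 groups, and all induced libraries lay below both groups taken before induction. It was 1.36-fold lower with induction in NC cells (log2 fold change -0.44 ± 0.18) and 1.27-fold lower in KD-Nap1l2 cells (-0.34 ± 0.18), and neither was called. Without KD-Nap1l2 replicate 1 the latter was -0.57 and called, and without replicate 2 it was -0.07. NC and KD-Nap1l2 overlapped before induction (0.10 ± 0.18), and KD-Nap1l2-7d lay 1.15-fold above NC-7d after it (0.20 ± 0.18).

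The LTBPs differed in their order between NC and KD-Nap1l2 cells. *Ltbp1*, which holds latent TGF-beta in the matrix, had 1099 and 903 normalized counts in NC, 1320 and 1322 in KD-Nap1l2, 918.4 and 817.8 in NC-7d, and 1253 and 1051 in KD-Nap1l2-7d. KD-Nap1l2 lay above NC on both days, by 1.32-fold before (log2 fold change 0.40 ± 0.15) and 1.33-fold after induction (0.41 ± 0.15). Its induction values were -0.21 ± 0.15 in NC cells, where the groups overlapped, and -0.20 ± 0.15 in KD-Nap1l2 cells. Without NC replicate 1 the NC value was -0.06.

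*Ltbp2*, an LTBP that does not bind latent TGF-beta and associates with fibrillin microfibrils, had 4316 and 6482 normalized counts in NC, 2333 and 2528 in KD-Nap1l2, 3849 and 4246 in NC-7d, and 4008 and 3534 in KD-Nap1l2-7d. KD-Nap1l2 was lowest and stood apart from the other 3 groups, and the 2 induced groups overlapped. Before induction *Ltbp2* was 2.22-fold lower in KD-Nap1l2 than in NC (log2 fold change -1.15 ± 0.20), and after it the value was -0.10 ± 0.20. With induction it was 1.33-fold lower in NC cells (-0.42 ± 0.20) and 1.55-fold higher in KD-Nap1l2 cells (0.63 ± 0.20), with no overlap in either. Neither was called, and that in KD-Nap1l2 cells was called in 4 of 14 alternative settings. The difference of the induction values, 1.05 ± 0.28, was not called in the fit across all genes. The NC libraries differed 1.5-fold, and the NC induction value was -0.68 when NC replicate 1 was left out and -0.09 when replicate 2 was. The *Ltbp2* to *Ltbp1* FPKM ratio was 3.38 and 6.05 in NC, 1.52 and 1.63 in KD-Nap1l2, 3.39 and 4.24 in NC-7d, and 2.53 and 2.71 in KD-Nap1l2-7d.

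*Mfap5*, a glycoprotein of microfibrils that also binds active TGF-beta, had 751.6 and 740.4 normalized counts in NC, 1646 and 3330 in KD-Nap1l2, 222.6 and 599.2 in NC-7d, then 346.9 and 640.1 in KD-Nap1l2-7d. KD-Nap1l2 lay above the other 3 groups, and NC-7d and KD-Nap1l2-7d overlapped. Before induction it was 3.33-fold higher in KD-Nap1l2 than in NC (log2 fold change 1.74 ± 0.50), and after it the value was 0.26 ± 0.50. Induction values were -0.86 ± 0.50 in NC cells and -2.33 ± 0.51 in KD-Nap1l2 cells, which is 5.04-fold lower. Its replicates were wide apart, by 2.02-fold in KD-Nap1l2 and 2.69-fold in NC-7d. Without NC-7d replicate 2 the NC induction value was -1.74 and the value of KD-Nap1l2-7d against NC-7d was 1.15. The call in KD-Nap1l2 cells was made in 11 of 14 settings, and not without KD-Nap1l2 replicate 2 or without either KD-Nap1l2-7d library.

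*Mfap4*, a microfibril-associated glycoprotein that binds elastin and fibrillin 1, was close to the detection limit. Its estimated counts were 69 and 26 in NC, 20 and 7 in KD-Nap1l2, 6 and 1 in NC-7d, and 1 and 0 in KD-Nap1l2-7d. Both NC libraries exceeded both KD-Nap1l2 libraries, and the induced groups overlapped. Summed over 2 libraries, the ratio of NC-7d to NC was 0.0777 (95% Clopper-Pearson interval 0.0304 to 0.166) and that of KD-Nap1l2-7d to KD-Nap1l2 was 0.0376 (0.000917 to 0.228). The ratio of KD-Nap1l2 to NC was 0.299 (0.187 to 0.462) before and 0.144 (0.00321 to 1.12) after induction. The intervals cover counting error only, and a library with 0 counts still allows up to 3. The call in NC cells was lost whenever an NC, NC-7d or KD-Nap1l2-7d library was left out.

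*Emilin1*, which encodes a glycoprotein of the elastin and microfibril interface, had 2939 and 3148 normalized counts in NC, 3034 and 3250 in KD-Nap1l2, 2300 and 2712 in NC-7d, and 1835 and 1863 in KD-Nap1l2-7d. The groups before induction overlapped, and KD-Nap1l2-7d lay lowest. With induction it was 1.21-fold lower in NC cells (log2 fold change -0.28 ± 0.13), which was not called, and 1.70-fold lower in KD-Nap1l2 cells (-0.77 ± 0.13). The latter call was made in 12 of 14 settings and was lost without either KD-Nap1l2-7d library. Without NC-7d replicate 1 the NC value was -0.17. For KD-Nap1l2 against NC cells, the value was 0.05 ± 0.13 before and -0.44 ± 0.13 after induction, which is 1.36-fold lower.

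**Figure D3:**
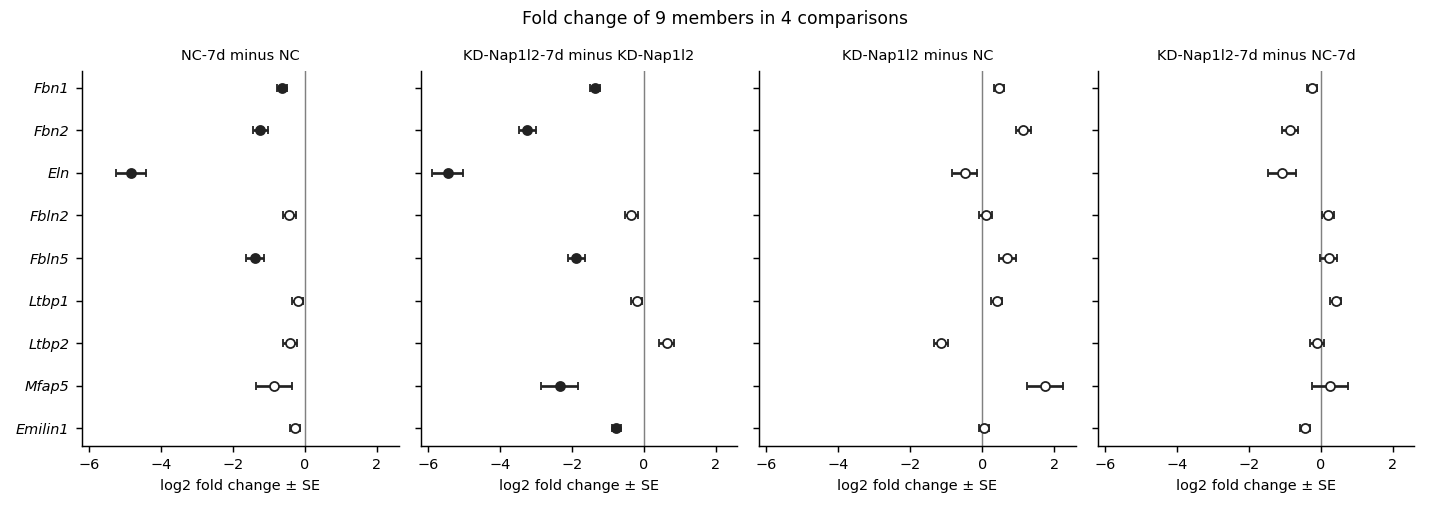
Log2 fold change (horizontal axes) of 9 members in 4 comparisons, with bars of 1 standard error. Filled points passed an adjusted p-value of 0.05 in edgeR, and *Mfap4*, which was close to the detection limit, is left out. *Eln* lies furthest from 0 in both inductions (-4.85 and -5.45), and *Ltbp2* and *Mfap5* lie on opposite sides in KD-Nap1l2 against NC before induction (-1.15 and 1.74).

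Knockdown cells were compared with NC cells on each day. Before induction 0 of the 10 members were called by edgeR at an adjusted p-value of 0.05, beside 0.0817% of all genes (11 of 13470). At an unadjusted edgeR p-value under 0.05 there were 7 of 10 members and 1852 of 13470 genes. On simulated data DESeq2 made more false calls than edgeR (39 against 13) but recovered more of 100 genes changed 2-fold (71 against 50). Before induction DESeq2 called 2 members, *Fbn2* and *Ltbp2*, and 460 genes. The libraries of 5 members (*Fbn1*, *Fbn2*, *Fbln5*, *Ltbp1* and *Mfap5*) lay higher in KD-Nap1l2 without overlap and those of 2 (*Ltbp2* and *Mfap4*) lower, beside 22% and 21.2% of all genes. After 7 days 0 members and 0% of all genes were called, with 4 members and 1057 genes at an unadjusted p-value under 0.05, while DESeq2 called 1 member, *Fbn2*, and 79 genes. By then 3 members (*Fbln2*, *Fbln5* and *Ltbp1*) lay higher and 4 (*Fbn1*, *Fbn2*, *Eln* and *Emilin1*) lower in KD-Nap1l2-7d without overlap, beside 21% of all genes in each direction. The 4 comparisons share libraries, so their values are set side by side and not counted as separate support. As the fold changes were known when the genes were put together, nothing is read from these counts of members.

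The difference between the 2 induction responses was fitted as an interaction. In edgeR 0 members and 0% of all genes were called, with 4 of 10 members and 947 of 13470 genes at an unadjusted p-value under 0.05. DESeq2 called 1 member, *Fbn2*, and 98 genes. Nothing is read from these counts of members either. The difference was below 0 for 7 members and above 0 for 3. It was -0.70 ± 0.20 for *Fbn1*, -1.48 ± 0.70 for *Mfap5* and -0.49 ± 0.18 for *Emilin1*, all further down in KD-Nap1l2 cells, and 0.10 ± 0.25 for *Fbln2* and 0.01 ± 0.21 for *Ltbp1*. That of *Mfap5* was -0.59 without NC-7d replicate 2, and that of *Eln* went from -0.59 ± 0.52 to 0.04 without the same library.

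A list of 45 partner genes of elastic fibre and microfibril assembly was examined next, and 37 of them were tested. The other 8 (*Hmcn1*, *Mfap2*, *Emilin3*, *Mmrn1*, *Adamtsl2*, *Adamts17*, *Mmp12* and *Ctss*) had too few counts, *Mfap2* among them with 3 to 12. In NC cells 1 of the 37 partners was called higher and 2 lower with induction, beside 4.83% and 3.39% of all genes. These counts are thus no result about the partners as a list. Without overlap 12 partners lay higher and 15 lower, beside 29.4% and 28.4% of all genes. *Tgfb3*, a TGF-beta ligand that LTBPs hold in the matrix, had 641.3 and 836.7 normalized counts in NC and 1379 and 1206 in NC-7d, and rose by 0.81 ± 0.19 (log2, edgeR adjusted p = 0.0403). *Adamtsl3*, an ADAMTS-like protein, went from 4809 and 5089 to 1375 and 2225 and fell by 1.46 ± 0.21 (adjusted p = 0.00849). *Mmp9*, a gelatinase that also cleaves elastin, had 110 and 84 counts in NC and 2 and 9 in NC-7d, a ratio of 0.0598 (0.0294 to 0.109, adjusted p = 0.00526). All 3 calls were lost without NC replicate 1, and that of *Tgfb3* also without any other NC, NC-7d or KD-Nap1l2-7d library. The median log2 fold change of the 37 was -0.05, against -0.004 over all genes tested.

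In KD-Nap1l2 cells 11 of the 37 partners were called lower and 1 higher with induction, beside 7.36% and 6.84% of all genes. Without overlap 18 partners lay lower and 8 higher, beside 30.6% and 30.8% of all genes. The partners were listed with earlier results known, so nothing is read from these counts. Of the fibulin family, 3 of 4 were called lower. All 4 lay lower without overlap, *Efemp1* (-0.677 ± 0.226) being the one not called. *Fbln1*, a fibulin that binds fibronectin and elastin, had 1353 and 1635 normalized counts before and 343.9 and 617.1 after induction (log2 fold change -1.64 ± 0.27, edgeR adjusted p = 0.00875). *Efemp2*, or fibulin 4, which brings lysyl oxidase to tropoelastin, went from 2348 and 2425 to 1040 and 1351 (-0.997 ± 0.147, adjusted p = 0.00626). *Fbln7* went from 156.6 and 193.6 to 8.02 and 35.5 (-3.01 ± 0.62, adjusted p = 0.02). In NC cells *Fbln1* was not called, with 829.4 and 880.6 before and 1117 and 872.5 after induction (0.22 ± 0.26). *Efemp2* (-0.531 ± 0.146) and *Fbln7* (-2.326 ± 0.599) were not called in NC cells either, but lay lower there without overlap. The *Fbln1* call was made in 14 of 14 settings, that of *Efemp2* was lost without KD-Nap1l2-7d replicate 1, and that of *Fbln7* without that library or KD-Nap1l2 replicate 2.

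Among the LTBP, emilin and ADAMTS relatives, *Ltbp4*, an LTBP of elastic tissue, went from 435.5 and 517.2 to 223.6 and 278.8 normalized counts in KD-Nap1l2 cells (log2 fold change -0.92 ± 0.17, edgeR adjusted p = 0.0123). *Adamtsl3* fell there as well, from 4368 and 3902 to 1609 and 1607 (-1.36 ± 0.21, adjusted p = 0.00795), and *Adamtsl1* from 196.7 and 517.2 to 45.11 and 51.17 (-2.89 ± 0.52, adjusted p = 0.012). *Adamts10*, an ADAMTS protease that binds fibrillin 1, went from 746.7 and 789.9 to 458.2 and 459.5 (-0.74 ± 0.15, adjusted p = 0.0163). *Mmrn2* of the multimerin family went from 61.65 and 50.99 to 6.015 and 15.66 (-2.37 ± 0.57, adjusted p = 0.032). All 5 lost their calls without either KD-Nap1l2-7d library, *Adamts10* also without KD-Nap1l2 replicate 2, and *Mmrn2* also without any NC or KD-Nap1l2 library. In NC cells *Ltbp4* (-0.394 ± 0.164), *Adamtsl1* (-1.681 ± 0.494), *Adamts10* (-0.389 ± 0.144) and *Mmrn2* (-1.659 ± 0.521) were not called, but lay lower without overlap.

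Of the chaperones and receptors, *Fkbp10*, a prolyl isomerase of the endoplasmic reticulum that assists elastin and collagen, went from 5837 and 6522 to 4610 and 4204 normalized counts in KD-Nap1l2 cells (log2 fold change -0.49 ± 0.13, edgeR adjusted p = 0.0447). *Itgav*, the integrin alpha v chain, went from 4602 and 5921 to 3583 and 2949 (-0.69 ± 0.17, adjusted p = 0.0344). Among the elastin-degrading proteases, *Mmp9* had 55 and 63 counts before and 1 and 2 after induction, a ratio of 0.0258 (0.00524 to 0.0772, adjusted p = 0.0033), and its call was made in 14 of 14 settings. *Ctsl*, a lysosomal cathepsin, rose from 6680 and 10893 to 20003 and 19084 (1.15 ± 0.26, adjusted p = 0.0269). The calls of *Fkbp10* and *Itgav* were lost in 8 and 7 of 14 settings, among them the replicate block, and without any NC or KD-Nap1l2-7d library or KD-Nap1l2 replicate 2. That of *Ctsl* was lost without KD-Nap1l2 replicate 1 or without either KD-Nap1l2-7d library.

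Of the enzymes that cross-link elastin, 0 of 5 lysyl oxidases were called in either induction. Few of all genes were called (4.83% higher and 3.39% lower in NC cells, 6.84% and 7.36% in KD-Nap1l2 cells). A count of 0 among 5 thus says little about these enzymes. In NC and KD-Nap1l2 cells *Loxl3* lay higher (0.388 ± 0.185 and 0.408 ± 0.185) and *Loxl1* lower (-0.078 ± 0.143 and -0.279 ± 0.143) without overlap. *Lox* had 29893 and 15581 normalized counts in NC, 33332 and 64811 in KD-Nap1l2, 31837 and 39433 in NC-7d, and 38927 and 37346 in KD-Nap1l2-7d. Its replicates were far apart in both groups taken before induction. The median log2 fold change of the 37 partners was -0.38 in KD-Nap1l2 cells, against -0.007 over all genes tested.

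**Figure D4:**
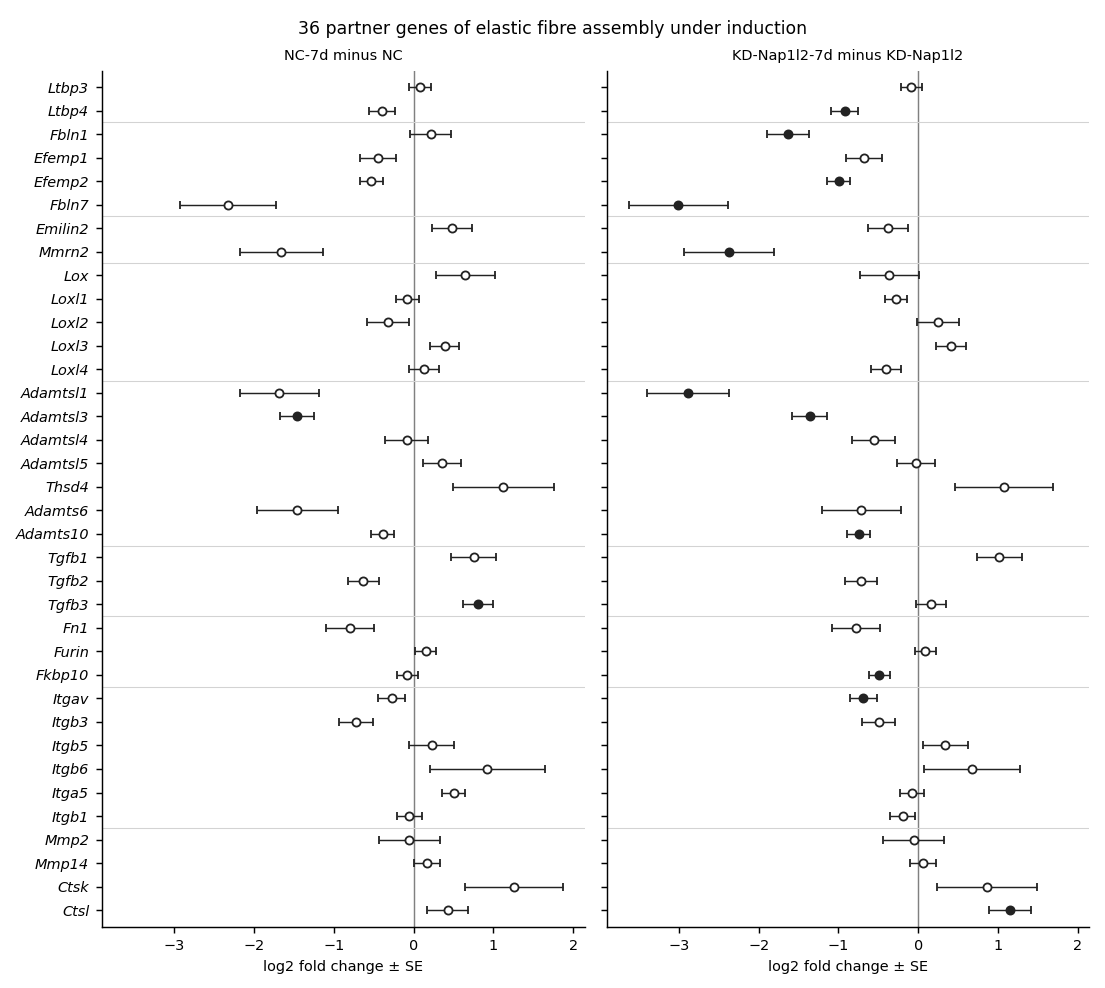
Log2 fold change with induction (horizontal axes, bars of 1 standard error) of 36 partner genes in NC cells (left) and KD-Nap1l2 cells (right), grouped by family between the grey lines. Filled points passed an adjusted p-value of 0.05 in edgeR, and *Mmp9*, with 3 counts in KD-Nap1l2-7d, is left out. Filled points are 2 at the left and 11 at the right.

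Between KD-Nap1l2 and NC cells 0 partners were called on either day, and 0 in the interaction. The smallest edgeR adjusted p-values were 0.11 before and 0.452 after induction and 0.404 in the interaction. At an unadjusted edgeR p-value under 0.05 there were 9, 8 and 4 of 37 partners, beside 1852, 1057 and 947 of 13470 genes. DESeq2 called 3, 3 and 1 partners, and its counts over all genes are given above with the members. As the partners were listed with earlier results known, nothing is read from these counts. Partners with a mean under 50 normalized counts (*Itgb6*, *Mmp9* and *Mmrn2* among them) were left out of the following order, although some lay further from 0. Before induction the 3 remaining partners furthest from 0 were *Lox* (log2 fold change 1.11 ± 0.37, adjusted p = 0.253), *Loxl4* (0.93 ± 0.19, adjusted p = 0.11) and *Fbln1* (0.81 ± 0.26, adjusted p = 0.232). After induction they were *Fbln1* (-1.05 ± 0.26, adjusted p = 0.494), *Itgb3* (0.91 ± 0.21, adjusted p = 0.452) and *Ctsl* (0.76 ± 0.26, adjusted p = 0.544). In the interaction they were *Fbln1* (-1.86 ± 0.37, adjusted p = 0.404), *Adamtsl1* (-1.21 ± 0.70, adjusted p = 0.766) and *Lox* (-1.01 ± 0.52, adjusted p = 0.731).

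Levels of the members were compared with one another on the FPKM scale. *Fbln2* was first in all 4 groups, at 221.3 ± 12.4 (SD, n = 2) in NC, 235.0 ± 42.6 in KD-Nap1l2, 163.4 ± 8.92 in NC-7d and 186.8 ± 2.45 in KD-Nap1l2-7d. In NC it was followed by *Eln* (149.4 ± 48.1), *Fbln5* (77.4 ± 3.99) and *Fbn1* (48.8 ± 2.15), with no overlap between these neighbours. *Fbn1*, *Emilin1* and *Ltbp2* overlapped each with the next in NC, and *Mfap5*, *Fbn2*, *Ltbp1* and *Mfap4* followed in separate steps. In KD-Nap1l2 *Fbln5* (124.7 ± 37.5), *Mfap5* (109.6 ± 47.5) and *Eln* (107.5 ± 19.4) overlapped, each with the next.

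After induction *Eln* stood in place 8 of 10 in NC-7d (5.24 ± 2.78) and in place 9 in KD-Nap1l2-7d (2.39 ± 0.573), beside *Fbn2* at 5.02 ± 1.17 and 2.76 ± 0.269, which it overlapped in both. *Emilin1*, *Ltbp2*, *Fbn1*, *Fbln5* and *Mfap5* formed an overlapping series in NC-7d between 38.6 and 19.5. *Mfap4* was last in every group. In rank among all genes, *Eln* went from above 97.5% of the 18605 genes in NC to above 52.9% in NC-7d.

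The summed FPKM of the 10 members was 660.8 and 624.3 in NC, 688.4 and 814.1 in KD-Nap1l2, 309.1 and 357.5 in NC-7d, and 344.2 and 345.8 in KD-Nap1l2-7d. Induced libraries thus held the lower sums. *Eln* made up 27.8% and 18.5% of it in NC, 17.6% and 11.5% in KD-Nap1l2, 1.06% and 2.01% in NC-7d, and 0.575% and 0.807% in KD-Nap1l2-7d. *Fbln2* made up 29.8% to 36.9% before and 47.5% to 54.8% after induction. The *Mfap5* share was 11% and 17.6% in KD-Nap1l2 and between 3.24% and 8.5% elsewhere.

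**Figure D5:**
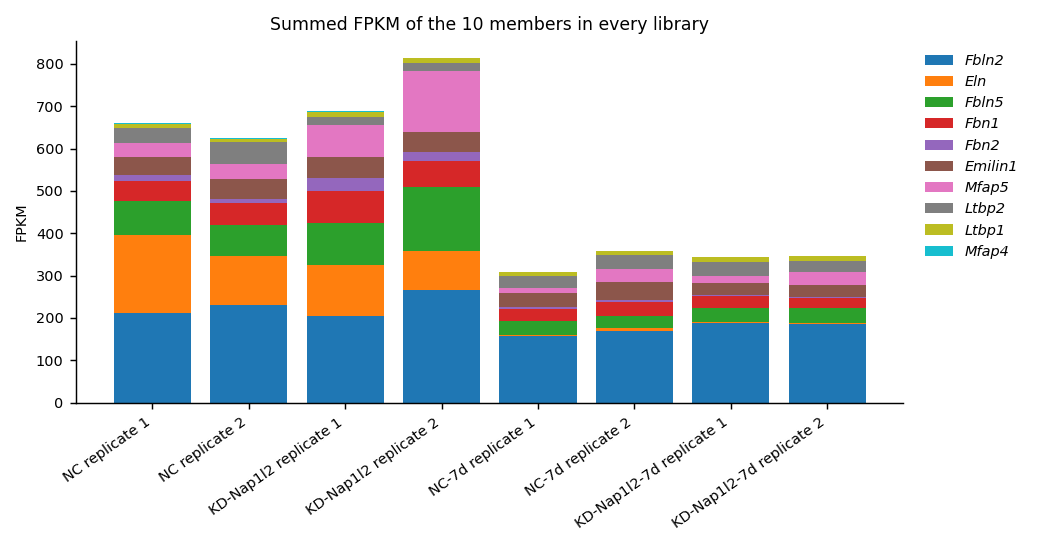
FPKM (vertical axis, from 0) of the 10 members stacked in each of the 8 libraries (horizontal axis). The induced libraries sum to between 309.1 and 357.5 and the others to between 624.3 and 814.1, and the *Eln* segment is a thin line after induction.

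The deposited transcript counts split each gene over its RefSeq transcripts, and such splits of near-identical transcripts are uncertain. *Fbn1* counts went mostly to XM_006498747.1 (46.5% to 84.2%) and NM_007993.2 (15.7% to 52.3%), and NC-7d replicate 1 was the only library with more of the latter. *Fbn2* counts went to NM_010181.2 at 86.4% to 94.1% in all 8 libraries. *Eln* counts went to NM_007925.4 at 50.1% to 55.2% in the first 3 groups, and at 36.1% and 70.3% in the 2 KD-Nap1l2-7d libraries, where few counts were left. *Fbln2* was split between NM_007992.2 (50.6% to 70.8%) and NM_001081437.1 (28.1% to 47.4%). *Ltbp2* counts went to NM_013589.3 at 71.3% to 80.1%, and at 76.6% and 78.6% in KD-Nap1l2. On GRCm38.p6, *Eln* lies at chr5:134702595-134747368, *Fbn1* at chr2:125300594-125506485, *Fbln5* at chr12:101746565-101819119 and *Ltbp2* at chr12:84783212-84876558.

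For *Fbn1*, *Fbn2* and *Eln* the tested genes with the most similar course over the 8 libraries were listed by Pearson's r of log2 CPM, as a description. For *Fbn1* they were *Cbx3* (r = 0.993), *Ckap4* (0.984) and *Rybp* (0.979). For *Fbn2* they were *Rybp* (0.996), *Cbx3* (0.992) and *Akap17b* (0.986). For *Eln* they were *Rspo2* (0.993), *Itga1* (0.992) and *Emc2* (0.992). The values of *Rybp* ran from 1009 to 1627 normalized counts and those of *Rspo2* from 1107 to 9229. The libraries share their split into 4 before and 4 after induction, and r was at least 0.9 for 326 tested genes with *Fbn1*, 382 with *Fbn2* and 575 with *Eln*. Among the members, r between *Fbn1* and *Fbn2* was 0.99, and *Ltbp2* had r between -0.72 and 0.09 with the other 9.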

How the data were processed

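Libraries were grouped by their labels. BGI prepared and sequenced them. The authors deposited estimated counts of genes and transcripts, not normalized and not whole for 41.1% of genes, and FPKM values, which the authors scaled to gene length and library size. Notes of the submitters on processing name GRCm38.p6, BWA, Bowtie2 and RSEM, with no role or version. Tables of the authors' own DESeq2 fold changes and p-values were not used. Strandedness is not given in the sources used here, so overlapping genes may share reads.

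Estimated counts were rounded and scaled by TMM, and filterByExpr kept 13470 of 18605 genes. One edgeR 4.0.16 fit (R 4.3.3) held all 8 libraries, and each contrast was given a quasi-likelihood test. Calls are Benjamini-Hochberg adjusted p-values under 0.05 over all genes tested. Standard errors are |log2 fold change| over the square root of F. FPKM served for levels between genes. With 2 against 2 libraries, an exact two-sided test cannot go below p = 0.333. Depths of 17420284 to 19427359 counts make 3 counts the limit for a gene at 0, and intervals cover counting error only.

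The members, partner list, marker lists and motifs were chosen with earlier results of these data known. Named genes are the 10 members, every partner called in a comparison or, where fewer than 2 were called, the 3 furthest from 0 among those averaging 50 or more normalized counts, and the 3 genes most alike to *Fbn1*, *Fbn2* and *Eln*. Alternatives were a DESeq2 1.42.0 fit, scaling by RLE, no low-count filter, fits restricted to the groups in a contrast, a replicate block, limma 3.58.1 on log2(FPKM + 1), and leaving out each library. Fits were tested on simulated data. Promoters and positions are from RefSeq on GRCm38.p6. Figures were drawn with matplotlib 3.10.9 under Python 3.11.15.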

Additional observations from a re-analysis of the deposited data

Results flagged for a closer look

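*Ltbp2* was noted because both NC-7d libraries lay below both NC libraries, and both KD-Nap1l2-7d libraries lay above both KD-Nap1l2 libraries. In NC cells the nearest libraries had 4246 (NC-7d) and 4316 (NC) normalized counts. Over all genes, 28.4% lay lower without overlap in NC cells and 30.8% higher in KD-Nap1l2 cells. How many did both was not counted. Its induction log2 fold change was -0.42 ± 0.20 in NC and 0.63 ± 0.20 in KD-Nap1l2 cells, a difference of 1.05 ± 0.28. The interaction test over all genes did not call this difference. Over 13 alternative settings, none of which called it, the difference ran from 0.73, when NC replicate 2 was left out, to 1.31, when NC replicate 1 was.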

How the results depend on the processing

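No called log2 fold change of a member changed sign in an alternative, and both *Eln* calls were made in 14 of 14 settings. Each group has 2 libraries, so counts of calls move strongly when one is left out, and a low count says little about absence of change. *Mfap4* and *Mmp9* are limited by depth. The causes of the changes below were not tested.

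Leaving out each library in turn, the calls with induction in NC cells ran from 1 to 5 members (5 with all libraries), 0 to 5 partners (3) and 118 to 1500 genes (1107). The lowest counts came without NC replicate 1. In KD-Nap1l2 cells they ran from 3 to 7 members (6), 2 to 15 partners (12) and 311 to 2238 genes (1913), lowest without KD-Nap1l2-7d replicate 1. In KD-Nap1l2 against NC before induction they ran from 0 to 1 members (0), 0 to 3 partners (0) and 0 to 578 genes (11), highest without KD-Nap1l2 replicate 1. After induction they ran from 0 to 1 genes (0), and in the interaction from 0 to 18 genes (0), both highest without NC-7d replicate 1. The lone library left in a group was then assumed to vary like the others.

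A fit restricted to the groups in the contrast called 3 members with induction in NC cells and 0 genes in KD-Nap1l2 against NC before induction. DESeq2 called 11 partners with induction in NC cells. Before induction it called 2 members, 3 partners and 460 genes in KD-Nap1l2 against NC, after induction 1 member, 3 partners and 79 genes, and in the interaction 1 member, 1 partner and 98 genes. With no filter on low counts, 5 partners were called with induction in NC cells, 2 members and 160 genes in KD-Nap1l2 against NC before induction, and 1 gene in the interaction. Limma on log2(FPKM + 1) called 6 partners with induction in NC cells and 33 genes before induction. The member and partner counts for NC induction stand here without the matching share of all genes, so nothing is read from them.

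With the replicate number as a block, 5 members and 961 genes were called with induction in NC cells, 7 members and 1758 genes in KD-Nap1l2 cells, and 4 genes (11 without the block) in KD-Nap1l2 against NC before induction. The numbers share no stated culture or day, and deviations of same-numbered libraries correlated between -0.14 and 0.12 over 6 pairs of groups, so the libraries share only a number.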

Other observations

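The latent TGF-beta ligands that LTBPs hold in the matrix did not share 1 course. *Tgfb1* had 379.3 and 533.8 normalized counts in NC, 365 and 556.7 in KD-Nap1l2, 888.4 and 653.9 in NC-7d, and 770.9 and 1092 in KD-Nap1l2-7d. *Tgfb2* had 1286 and 1298 in NC, 1154 and 984.5 in KD-Nap1l2, 707.5 and 962.6 in NC-7d, and 548.4 and 753.9 in KD-Nap1l2-7d. Both induced groups lay above the others for *Tgfb1* and below them for *Tgfb2*, and edgeR called neither gene in either induction. In KD-Nap1l2 cells, alternative settings called *Tgfb1* in 7 of 14 and *Tgfb2* in 4 of 14. Fibronectin (*Fn1*), the scaffold on which fibrillin microfibrils assemble, had 65825 and 91091 in NC, 89605 and 169098 in KD-Nap1l2, 45673 and 44696 in NC-7d, and 79808 and 70867 in KD-Nap1l2-7d, and edgeR with all libraries did not call it in any comparison.

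Of the promoters that were not printed, the second *Ltbp1* window held 2 matches to the RUNX motif, 71 and 33 bases before the start, against 5.27% of all promoters with at least 1. The *Emilin1* window held 2 CAGAC matches and 1 AGAACA, which overlaps 1 of them.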
